A study of Xenopus laevis with 9 samples.

Results

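The cytoplasm of frog eggs carries a large store of maternal mRNAs, and the 36 mRNAs described here were chosen as those of Rab GTPases and other parts of the vesicle traffic machinery, with 1, sec11a.L, caught by its letters alone. They were taken by their symbols (those beginning with rab, arf, arl, cop, sec, ap, trappc, exoc, vps, snx, stx or vamp in the forms given under the methods) from the 1999 named entries in hand of a source table of 19752, and joined by gene identifier to the 44478 genes of the raw count table. All 36 were found there and passed the filter on low counts. The entries in hand cover 10.1% of the table and come from few chromosomes, so 20 of the mRNAs are from chromosome 3L, 12 from 2S and 4 from 1L, and 24 are L and 12 are S homeologs (the gene copies of the long and the short subgenome). RNA was sequenced from undiluted egg extract of *Xenopus laevis* before filtration (input, time 0), and from its filtrate at an early time, T1, at low pressure, and at a late time, T2, at high pressure, with 3 libraries of each and 9 in all. The paper likens the filtration to that of its protein experiment with 30 nm pores. A pore size for the RNA experiment itself is not given in the sources used here. The eggs came from wildtype females of 1 to 5 years primed with gonadotropins. By the methods for egg extracts, all extracts, the input included, held cytochalasin D and nocodazole, which block actin filaments and microtubules, the protease inhibitors leupeptin, pepstatin and chymostatin, sucrose and a little DMSO. The methods report 3 biologically independent samples for the 9 experiments, with each condition in triplicate, so that the conditions may share extracts. Whether same-numbered libraries share an extract is not given in the sources used here, nor is the number of frogs behind each extract.

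Vesicle traffic moves proteins and membrane between compartments. Coat complexes (COPII at the endoplasmic reticulum, COPI at the Golgi, clathrin with its adaptors at the Golgi, endosomes and plasma membrane) bud a vesicle and pick its cargo, small GTPases of the Arf family recruit coats, Rab GTPases mark each membrane and recruit motors and tethers, tethering complexes catch the vesicle at its target, and SNARE proteins fuse it. In the egg these mRNAs are part of the maternal supply on which the embryo relies before its own genes are switched on. What was measured here is the mRNA, not the protein or the vesicles. The question behind the filtration is which RNAs pass small pores early, which pass late and which are held back. As every T1 library was taken at low and every T2 library at high pressure, time and pressure cannot be told apart here.

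Reads on genes numbered 65503682 to 90000652 per input library, 23509338 to 37265313 per T1 library and 60330615 to 93451602 per T2 library. The 36 mRNAs took a share of 0.169% ± 0.00319 in the input libraries (SD, n = 3), of 0.162% ± 0.0251 at T1 (SD, n = 3) and of 0.186% ± 0.00496 at T2 (SD, n = 3). Of the 9 libraries T1 replicate 3 stood apart, with the fewest reads on genes (23509338) and the lowest normalization factor (0.795). Levels are given in CPM, reads scaled to a common library total after TMM normalization, which assumes that most genes do not change between libraries. Of all genes tested, 39.5%, 31.1% and 19.4% were within 2-fold of the mean input in T1 replicates 1, 2 and 3. At T2 these shares were 68.5%, 61.0% and 51.1%. How far the T1 scale rests on unchanged genes was not tested. In libraries scaled in this way less of an mRNA and more of other RNAs cannot be told apart. CPM are also not corrected for transcript length, so that they compare libraries and not genes. The 11 egg and oocyte marker genes had reads in every library, which summed to 1806 to 2180 CPM per input library, 1868 to 2502 CPM per T1 library and 1869 to 1959 CPM per T2 library. The 4 blood cell markers summed to at most 6.71 (input), 0.0536 (T1) and 13.6 CPM (T2), and the 5 markers of follicle, connective tissue and vessel to at most 4.66, 14.3 and 11.3 CPM.

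In the early filtrate, 2 of the 36 mRNAs differed from the input. The mRNA of vamp8.L was more abundant and that of vps13c.L less abundant at an adjusted p-value under 0.05 in edgeR's quasi-likelihood test, adjusted over all 20148 genes tested. This is 5.56% of the 36, where 11.5% of all genes tested were called (6.44% higher and 5.08% lower). A further 4 had an unadjusted p-value under 0.05, 6 in all, against 32.4% of all genes. The fitted log2 fold change was above 0 for 23 and below 0 for 13, against 48% and 52% of all genes, and its median was 0.45 over the 36 mRNAs and -0.09 over all genes. These medians were 0.23 and -0.25 with library size only, and 0.0087 and -0.72 with the replicate number as a block. The 3 T1 libraries lay entirely above the 3 input libraries for 6 mRNAs (15.7% of all genes did so) and entirely below them for 5 (27.8%, and 43.5% of all genes in either direction). The number called changed with the libraries used, as did that over all genes. It was 4 without T1 replicate 3 (vamp8.L and arfgap3.L higher, vps13c.L and rab8b.L lower, with 13.2% of all genes called), 6 without T1 replicate 1 (18.8%), 1 without T1 replicate 2 (12.4%), T2 replicate 1 (6.47%) or T2 replicate 3 (9.60%), and 0 without input replicate 1 (2.00%), 2 (1.99%) or 3 (2.81%). DESeq2's Wald test called 9 of the 36 and 27.9% of all genes, adding exoc4.L, rab9a.S, rab24.L, snx33.L, trappc2.S and trappc3.S as higher and rab8b.L as lower. The median over the 36 mRNAs of the log2 ratio to the mean input, with 1 CPM added, was 0.11 and 0.32 in T1 replicates 1 and 2 and -0.32 in replicate 3. Over all genes tested it was -0.28, -0.39 and -0.81, so replicate 3 was the lowest for both. The fall was 4-fold or more for 3 mRNAs and the rise 4-fold or more for 3, where 22.2% and 12.8% of all genes tested fell or rose so far in the fit.

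**Figure D1:**
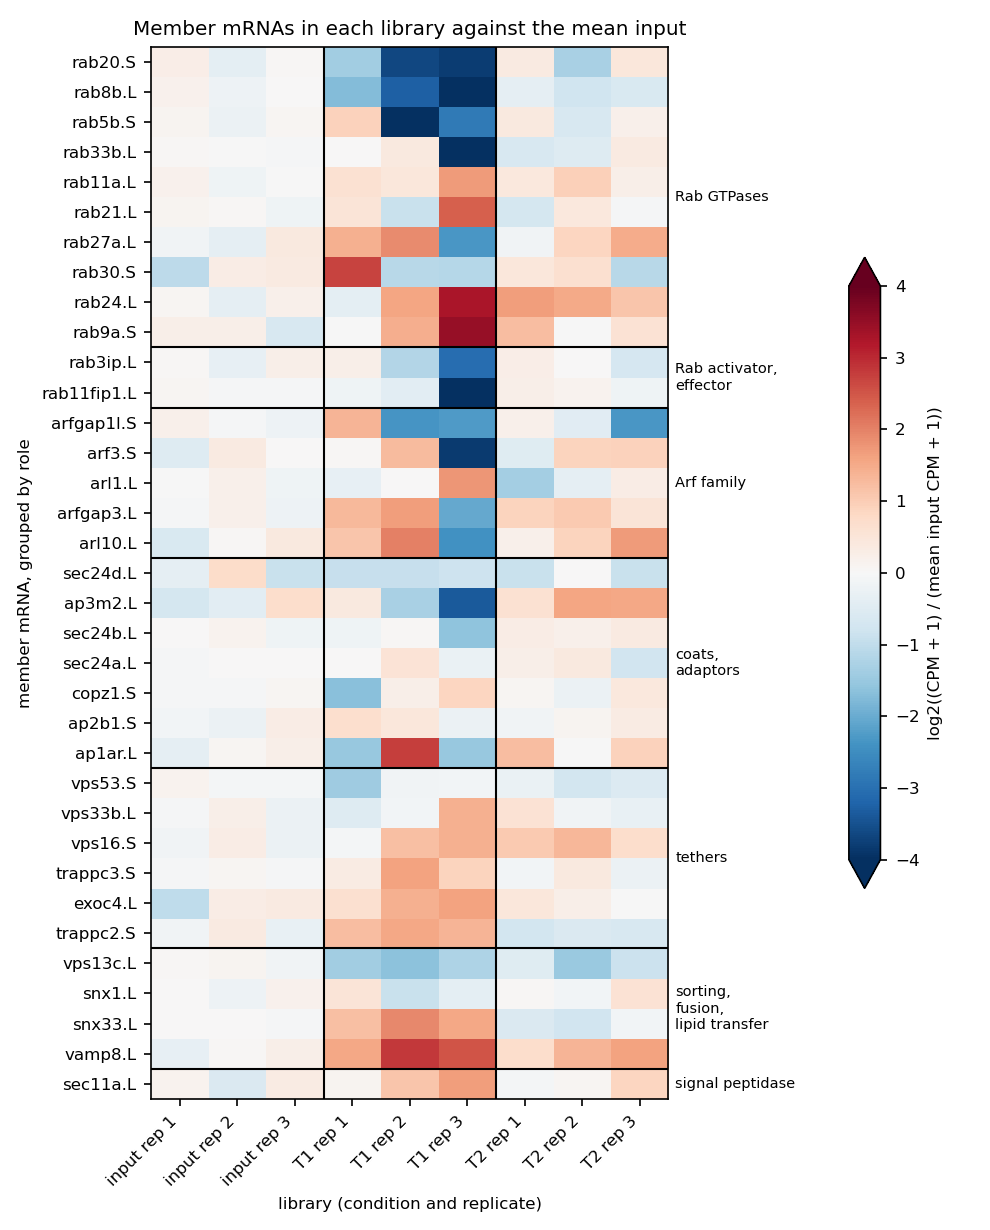
Level of 35 of the 36 mRNAs (vertical, grouped by role and ordered by the fitted change at T1) in each of the 9 libraries (horizontal), as log2 of the CPM plus 1 over the mean input CPM plus 1, with blue below and red above the input and the colour scale ending at -4 and 4. The input columns are pale and the T1 columns differ most among themselves, with median coefficients of variation over all 36 of 17.3% and 83.2%.

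The T1 libraries differed from each other far more than the input libraries did. The coefficient of variation over 3 libraries had a median over the 36 mRNAs of 17.3% for the input libraries, 83.2% for T1 and 34.4% for T2, and over all genes tested it was 23.0%, 87.8% and 44.2%. Some of these mRNAs, such as rab33b.L and rab11fip1.L, were near their input level in 2 T1 libraries and close to 0 in another. A level 8-fold or more below the mean input was reached by 2 of the 36 mRNAs in T1 replicate 1, by 6 in replicate 2 and by 14 in replicate 3, or 5.56%, 16.7% and 38.9%, against 27.4%, 33.1% and 49.0% of all genes tested. By gene, 22 of the 36 mRNAs (61.1%) had no T1 library that low, against 42.0% of all genes, and 1 (2.78%) had all 3 that low, against 16.9%. Another 7 (19.4%) had 1 library that low, against 23.4% of all genes, and 6 (16.7%) had 2, against 17.8%. At T2 the same level was reached by 1, 0 and 3 of the 36 mRNAs in replicates 1, 2 and 3 (11.1%, 12.0% and 18.1% of all genes). The opposite extreme was also common, since 8, 14 and 12 of the 36 mRNAs were more than 2-fold above the mean input in T1 replicates 1, 2 and 3 (22.2%, 38.9% and 33.3%, against 22.0%, 25.1% and 24.6% of all genes). The library with the most lows was that with the fewest reads, where a count of 0 allows up to 0.161 CPM, and the part of depth in these lows was not tested. Across the 36 mRNAs the coefficient of variation at T1 was lower where the mean input CPM was higher (Spearman correlation -0.62, n = 36, -0.68 over all genes tested), a description over points that share the same libraries. The mean input CPM had a median of 21.7 over the 36 mRNAs and 15.8 over all genes tested. Of the 36, 22 lay above the median of all genes. The part of the input level in the shares of lows was not tested.

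**Figure D2:**
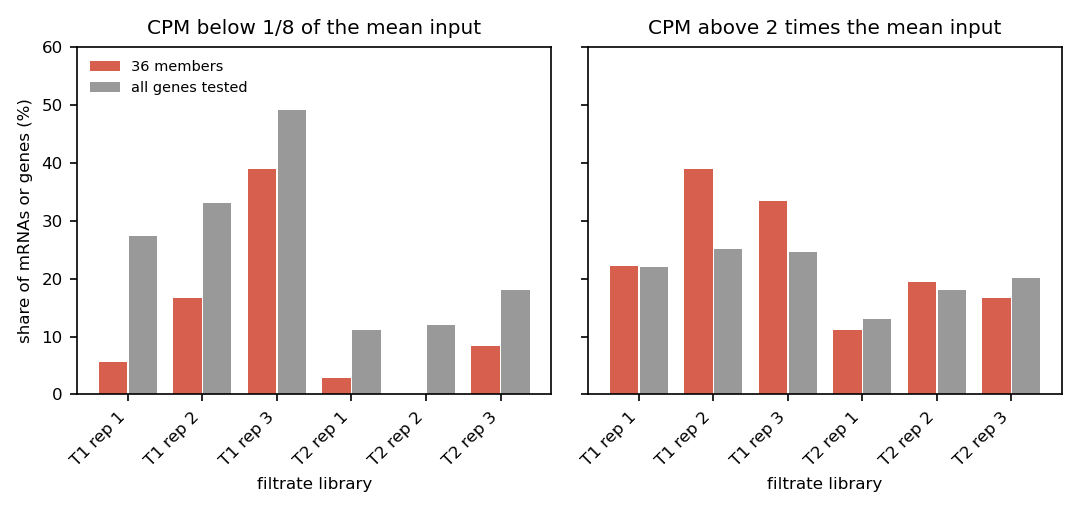
Share of the 36 mRNAs (red bars) and of all 20148 genes tested (grey bars) that were 8-fold or more below the mean input CPM (left) or more than 2-fold above it (right), in percent, in each filtrate library. The share of low mRNAs is largest in T1 replicate 3, 38.9% of the 36 mRNAs and 49.0% of all genes, and at most 8.33% of the 36 mRNAs in any T2 library.

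The 4 mRNAs for sorting, fusion and lipid transfer held both of the mRNAs that passed the test, where 11.5% of all genes did. VAMP8 is a SNARE protein of late endosomes and lysosomes that serves in their fusion, in the last step of autophagy and in secretion. The vamp8.L mRNA (chromosome 3L, 133418461 to 133429345) had 16.1, 21.1 and 24.4 CPM in the input, 61.3, 151 and 121 CPM at T1, and 34.2, 54.4 and 64.2 CPM at T2, in replicates 1, 2 and 3. All 3 T1 libraries and all 3 T2 libraries were above all 3 input libraries. Its log2 fold change at T1 was 2.44 (standard error 0.48, adjusted p = 0.0116 with edgeR), and at T2 1.31 (standard error 0.46, adjusted p = 0.396). The call at T1 held in 14 of 17 alternative settings, and was missed where any of the 3 input libraries was left out (adjusted p-values up to 0.0770).

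VPS13C is a very large protein that transfers lipids between the endoplasmic reticulum and late endosomes or lysosomes. The vps13c.L mRNA (chromosome 3L, 97423899 to 97556252) had 114, 120 and 99.7 CPM in the input, 42.3, 34.7 and 47.0 CPM at T1, and 79.1, 38.7 and 60.9 CPM at T2. All filtrate libraries lay below all input libraries, and the 3 T1 libraries were close to each other. Its log2 fold change was -1.43 at T1 (standard error 0.38, adjusted p = 0.0365 with edgeR) and -0.90 at T2 (standard error 0.37, adjusted p = 0.545). The call at T1 held in 8 of 17 alternative settings, with adjusted p-values up to 0.134. The remaining members of this group are sorting nexins, proteins that bind and bend endosomal membrane. The snx33.L mRNA (chromosome 3L, 98861022 to 98877045) had 17.1, 17.3 and 16.6 CPM in the input, 40.1, 66.4 and 51.1 CPM at T1, and 11.1, 9.48 and 15.7 CPM at T2, a pattern singled out here after its values were seen. The 3 conditions did not overlap, with T1 above and T2 below the input. Its log2 fold change at T1 was 1.63 (standard error 0.60, adjusted p = 0.0932 with edgeR), which missed the threshold. At T2 it was -0.49 (standard error 0.59, adjusted p = 0.9999 with edgeR). The snx1.L mRNA, for a partner of the retromer complex that returns receptors from endosomes to the Golgi, stayed within 2-fold of the mean input in all 6 filtrate libraries, with a log2 fold change of -0.14 at T1 (standard error 0.37).

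**Figure D3:**
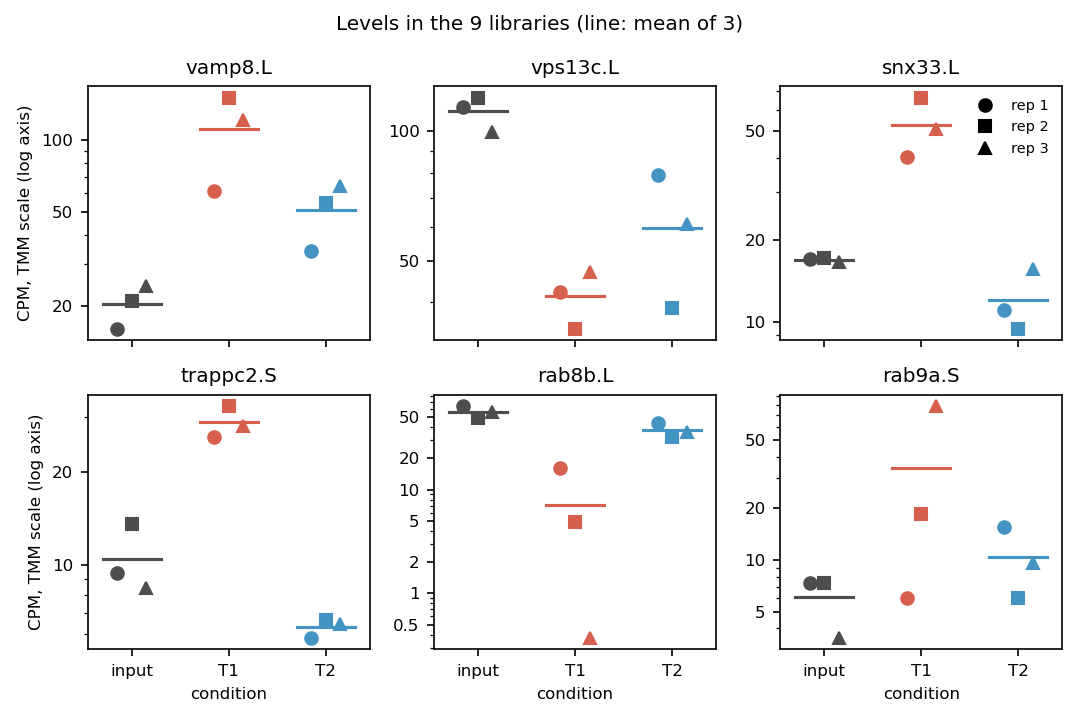
CPM on a log axis of 6 mRNAs in the 9 libraries by condition, with a symbol for each replicate and a line at the mean of 3. The vamp8.L, snx33.L and trappc2.S libraries of T1 all lie above the input and those of vps13c.L and rab8b.L all below it, while rab9a.S ranges from 5.98 to 78.9 CPM within T1.

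Rab GTPases were the largest group, with 10 mRNAs. At T1 6 of them had a log2 fold change above 0 and 4 below (48% and 52% of all genes). None passed the test, where 11.5% of all genes did. At that share a count of 0 among 10 says little about the group. RAB9A acts between late endosomes and the Golgi. The rab9a.S mRNA (chromosome 2S, 97287119 to 97298167) had the largest fitted rise of the group, with 7.39, 7.37 and 3.53 CPM in the input, 5.98, 18.5 and 78.9 CPM at T1 and 15.5, 6.02 and 9.55 CPM at T2. The rise was carried by T1 replicates 2 and 3, and replicate 1 lay within the input range (log2 fold change 2.50, standard error 1.09, adjusted p = 0.141 with edgeR). RAB20 is linked to the maturation of phagosomes in mammals. The rab20.S mRNA (chromosome 2S, 107866636 to 107877951) had the largest fitted fall, with 15.8, 9.58 and 13.3 CPM in the input, 4.33, 0.114 and 0 CPM at T1 and 16.8, 4.72 and 17.9 CPM at T2. All T1 libraries were below all input libraries, and its log2 fold change was -3.12 (standard error 1.81, adjusted p = 0.261 with edgeR).

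RAB8B takes part in transport from the Golgi and recycling endosomes to the plasma membrane. The rab8b.L mRNA (chromosome 3L, 97125028 to 97138136), singled out after its values were seen, had 63.5, 48.5 and 56.1 CPM in the input, 16.2, 4.90 and 0.375 CPM at T1 and 43.5, 32.1 and 36.0 CPM at T2. The conditions did not overlap, with T1 lowest and T2 between T1 and the input. Its log2 fold change at T1 was -2.96 (standard error 1.01, adjusted p = 0.0747 with edgeR). It was past the threshold in 3 of 17 alternative settings. These were edgeR's test without T1 replicate 1 (adjusted p = 0.0183) or without T1 replicate 3 (0.0218), and DESeq2's Wald test (0.00558). Over the 17 settings the adjusted p-values reached 0.179.

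Most of the other Rab mRNAs were above the mean input in some T1 libraries and below it in others, rab11a.L excepted. For RAB24, a Rab linked to autophagy, the rab24.L mRNA had 2.40, 12.3 and 41.7 CPM at T1 against 2.48 to 4.18 CPM in the input (log2 fold change 2.43). For RAB21, which carries integrins through early endosomes, the rab21.L mRNA had 37.2, 13.4 and 140 CPM against 22.9 to 27.9 CPM (1.31). The rab11a.L mRNA, for the Rab of recycling endosomes, was above the whole input range in all 3 T1 libraries, at 22.3, 19.8 and 48.1 CPM against 12.6 to 16.0 CPM (1.08). In rab9a.S, rab24.L, rab21.L and rab11a.L alike, T1 replicate 3 was the highest library of all 9. In 2 other mRNAs of the group it was at or near 0 where replicates 1 and 2 were above the mean input. For RAB27A, which serves the secretion of lysosome-related organelles, the rab27a.L mRNA had 12.4, 17.5 and 0 CPM at T1 against 2.88 to 5.50 CPM in the input (1.33). For RAB33B, a Golgi Rab that also binds the autophagy machinery in mammals, the rab33b.L mRNA had 64.6, 84.4 and 0.643 CPM against 62.2 to 65.6 CPM (-0.36). The early endosome Rab mRNA rab5b.S, whose gene overlaps suox.S in the gene table, had 35.5, 0.0570 and 1.72 CPM against 15.6 to 20.0 CPM (-0.56). The rab30.S mRNA, for a Golgi Rab, had 13.6, 0.0285 and 0 CPM against 0.0883 to 1.88 CPM (1.89), so its fitted rise came from T1 replicate 1 alone, and without that library its log2 fold change was -6.13.

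The Rab partners in the set had fitted falls. RAB3IP, also known as Rabin8, activates Rab8. The rab3ip.L mRNA (chromosome 3L, 65969510 to 65997677) had 8.55, 6.38 and 9.78 CPM in the input, 9.98, 3.13 and 0.107 CPM at T1 and 9.99, 8.32 and 4.83 CPM at T2 (log2 fold change -0.90 at T1, standard error 1.46, adjusted p = 0.730 with edgeR). RAB11FIP1 is an effector that Rab11 recruits to recycling endosomes. The rab11fip1.L mRNA had 164, 152 and 152 CPM in the input and 138, 115 and 1.55 CPM at T1. Its level in T1 replicate 3 was 0.00995 of the input mean, while replicates 1 and 2 kept 0.886 and 0.738 of it, and T2 kept between 0.881 and 1.17. Its log2 fold change at T1 was -0.88 (standard error 0.94), and none of the alternative settings brought it past the threshold.

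Of the 6 mRNAs of the Arf family and its regulators, 5 had a log2 fold change above 0 at T1 (48% of all genes). None passed the test, where 11.5% of all genes did. The arl10.L mRNA (chromosome 3L, 52938618 to 52942722), for a little-studied Arf-like GTPase, had the largest fitted rise, with 2.91, 5.24 and 6.77 CPM in the input, 11.8, 22.9 and 0.107 CPM at T1 and 5.86, 10.1 and 18.3 CPM at T2 (1.22, standard error 1.48). Its gene overlaps nop16.L in the gene table, and it holds 5070 reads over the 9 libraries in the raw table but 11600 in the normalized one, so its level is uncertain. With the latter reads its log2 fold change was 0.75. The arfgap1l.S mRNA (chromosome 2S, 167322569 to 167415140) was the only one with a fitted change below 0, at 4.91, 3.95 and 3.43 CPM in the input, 12.1, 0 and 0.0536 CPM at T1 and 4.92, 2.74 and 0.0167 CPM at T2 (-0.01, standard error 2.31). Its T1 libraries spanned more than the whole input and T2 range. ARFGAP3 switches off Arf1 at the Golgi, and its mRNA arfgap3.L had 39.8, 52.3 and 3.002 CPM at T1 against 13.6 to 18.4 CPM (1.01). It was past the threshold in 1 of 17 alternative settings, edgeR's test without T1 replicate 3 (adjusted p = 0.0480). Over the 17 settings the adjusted p-values reached 0.772. The arf3.S mRNA, for a Golgi Arf that recruits coats, had 17.0, 40.7 and 0.214 CPM at T1 against 11.3 to 21.4 CPM (0.23). The arl1.L mRNA, for the Arf-like GTPase that brings golgin tethers to the trans-Golgi, had 21.4, 27.0 and 94.6 CPM against 23.5 to 30.8 CPM (0.83).

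Of 7 coat and adaptor mRNAs, 4 had a log2 fold change above 0 at T1 and 3 below (48% and 52% of all genes). None passed the test, where 11.5% of all genes did. SEC24 proteins are the subunits of the COPII coat that bind cargo. The sec24d.L mRNA (chromosome 1L, 74645596 to 74693988) had the largest fitted fall, with 0.471, 2.15 and 0.0106 CPM in the input, 0, 0 and 0.0536 CPM at T1 and 0.00994, 0.887 and 0.0167 CPM at T2. It had 192 reads in the 3 input libraries together and 1 read in the 3 T1 libraries, a ratio of 0.0137 after scaling (exact 95% interval 0.000344 to 0.0770, which covers counting error only), and the input libraries themselves ranged from 0.0106 to 2.15 CPM (adjusted p = 0.183 with edgeR). Its paralogs, which had more reads, stayed nearer to the input. The sec24b.L mRNA had 333, 368 and 292 CPM in the input, 296, 341 and 108 CPM at T1 and 409, 384 and 429 CPM at T2 (log2 fold change -0.41 at T1, standard error 0.36), and sec24a.L stayed within 2-fold of the mean input in all filtrate libraries (0.14).

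AP1AR binds the clathrin adaptor AP-1 in mammals. Its mRNA ap1ar.L (chromosome 1L, 72614799 to 72641154) had the largest fitted rise of this group, with 1.25, 2.04 and 2.36 CPM in the input, 0, 18.8 and 0 CPM at T1 and 5.78, 1.85 and 4.42 CPM at T2 (1.73, standard error 2.31). The rise rested on T1 replicate 2, the only T1 library with reads, and without it the log2 fold change was -10.02. The ap2b1.S mRNA, for a large subunit of the endocytic clathrin adaptor AP-2, stayed within 2-fold of the mean input in every filtrate library (0.36). The mRNAs that did so in all 6 filtrate libraries were 3 of the 36, ap2b1.S, sec24a.L and snx1.L, or 8.33%, against 7.82% of all genes tested. The ap3m2.L mRNA, for a medium subunit of AP-3, had 14.0, 3.56 and 0.107 CPM at T1 against 5.94 to 17.5 CPM in the input (-0.81), and the copz1.S mRNA, for the zeta subunit of COPI, had 18.2, 70.8 and 109 CPM against 58.2 to 63.2 CPM (0.14).

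Of the 6 tether mRNAs, 5 had a log2 fold change above 0 at T1 (48% of all genes). None of the 6 passed the test, where 11.5% of all genes did. No T1 library was 8-fold or more below the mean input for any of them, as for 42.0% of all genes. Their coefficients of variation at T1 ran from 11.7% to 77.1%, where those of the Rab mRNAs ran from 52.2% to 173%. This was not particular to the tethers. The 4 mRNAs for sorting, fusion and lipid transfer had no T1 library that low either, and coefficients of variation of at most 50.7%. The part of the input level in these differences between groups was not tested. TRAPP complexes tether vesicles at the Golgi and activate Rabs. The trappc2.S mRNA (chromosome 2S, 97272190 to 97280250) had the largest fitted rise, with 9.43, 13.6 and 8.39 CPM in the input, 25.9, 32.5 and 28.1 CPM at T1 and 5.83, 6.65 and 6.44 CPM at T2. As for snx33.L, T1 lay entirely above and T2 entirely below the input (log2 fold change at T1 1.46, standard error 0.82, adjusted p = 0.244 with edgeR). At T2 the log2 fold change was -0.73 (standard error 0.81, adjusted p = 0.9999 with edgeR). Its gene lies next to that of rab9a.S on chromosome 2S, but the spread at T1 was unlike, 11.7% against 113% as a coefficient of variation. The trappc3.S mRNA, for another TRAPP subunit, had 33.3, 82.3 and 49.9 CPM at T1 against 25.7 to 28.3 CPM in the input (1.05).

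EXOC4 is a subunit of the exocyst, the tether of the plasma membrane. The exoc4.L mRNA had 51.8, 89.4 and 102 CPM at T1 against 15.7 to 42.1 CPM in the input (1.32, standard error 0.51, adjusted p = 0.105 with edgeR), again without overlap. VPS53 is a subunit of tethers for vesicles that return from endosomes. The vps53.S mRNA (chromosome 2S, 87765751 to 87836369) had the only fitted fall of the tethers, with 108, 93.4 and 92.4 CPM in the input, 36.3, 88.8 and 90.8 CPM at T1 and 81.8, 58.5 and 66.2 CPM at T2 (-0.45, standard error 0.40, adjusted p = 0.489). All of its filtrate libraries lay below the input, though T1 replicates 2 and 3 did so by little. VPS16 is a core subunit of the HOPS and CORVET tethers of endosomes and lysosomes, and its mRNA vps16.S had 31.9, 78.6 and 91.8 CPM at T1 against 28.8 to 41.7 CPM (1.00). The vps33b.L mRNA, for a relative of the HOPS subunit VPS33A, had 20.0, 27.2 and 79.7 CPM against 24.8 to 34.2 CPM (0.54).

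The sec11a.L mRNA (chromosome 3L, 96296129 to 96316292) was caught by its letters and encodes a catalytic subunit of the signal peptidase of the endoplasmic reticulum, not a part of vesicle traffic. It had 33.8, 20.2 and 38.7 CPM in the input, 33.5, 67.8 and 100 CPM at T1 and 29.0, 32.4 and 56.3 CPM at T2 (log2 fold change at T1 1.12, standard error 0.55, adjusted p = 0.185 with edgeR).

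**Figure D4:**
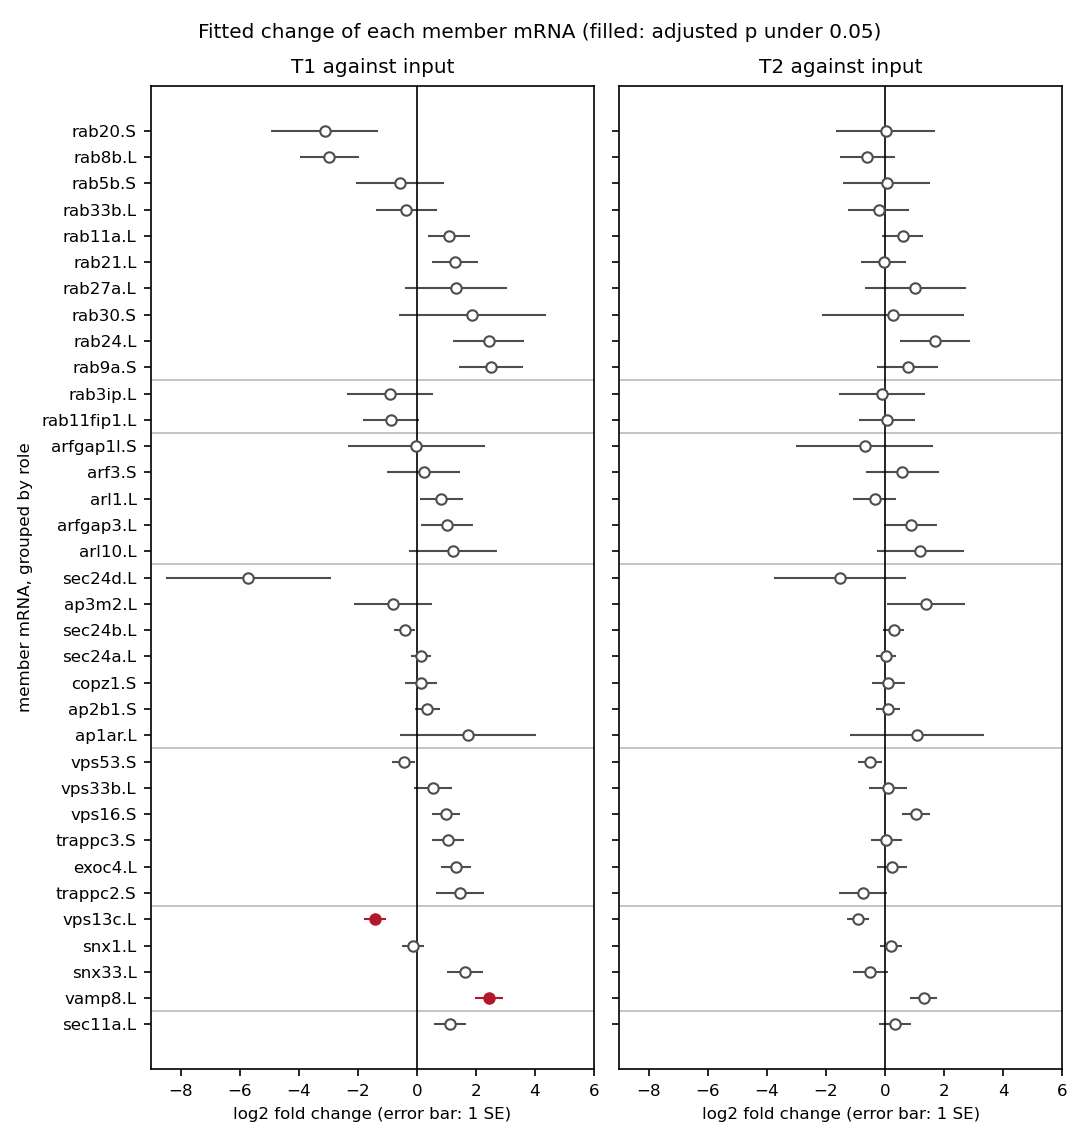
Fitted log2 fold change against the input of 35 of the 36 mRNAs (vertical, grouped by role) at T1 (left) and T2 (right), with bars of 1 standard error and filled symbols for an adjusted p-value under 0.05. Only vamp8.L (2.44) and vps13c.L (-1.43) are filled, both at T1, and the T2 values lie between -1.52 and 1.69.

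At the late time 0 of the 36 mRNAs passed the threshold of edgeR's test against the input, where 0% of all genes tested did. At an unadjusted p-value under 0.05 there were 3 (vamp8.L, vps13c.L and vps16.S), against 7.79% of all genes. DESeq2's Wald test called 0 of the 36 and 1.24% of all genes. The log2 fold changes ran from -1.52 for sec24d.L to 1.69 for rab24.L, with a median of 0.12 (0.14 over all genes). They were above 0 for 25 mRNAs and below 0 for 11 (57.1% and 42.9% of all genes), and none of the 36 reached a 4-fold fall or rise in the fit (4.86% and 3.16% of all genes). The T2 libraries lay entirely above the input for 6 mRNAs (14.1% of all genes), namely vamp8.L, vps16.S, rab24.L, rab11a.L, arfgap3.L and sec24b.L, and entirely below it for 5 (12.8%, and 26.9% of all genes in either direction), namely vps13c.L, vps53.S, rab8b.L, snx33.L and trappc2.S. The vps16.S mRNA had 70.2, 85.9 and 56.0 CPM at T2, a log2 fold change of 1.06 (standard error 0.47, adjusted p = 0.622 with edgeR). All 3 T2 libraries were within 2-fold of the mean input for 21 of the 36 mRNAs, or 58.3%, against 35.8% of all genes, and all 3 T1 libraries for 3 of them, or 8.33%, against 9.51%. The 36 mRNAs had a higher median input level than all genes, and its part in these shares was not tested.

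Between the filtrates, none of the 36 mRNAs passed the threshold in edgeR's test, where 0.0993% of all genes tested did (0.0893% higher and 0.00993% lower at T2), and 4 had an unadjusted p-value under 0.05 (snx33.L, trappc2.S, vamp8.L and rab8b.L) against 22.7% of all genes. The log2 fold change of T2 against T1 was above 0 for 14 and below 0 for 22 (52.8% and 46.6% of all genes), with a median of -0.13 (0.09 over all genes). It reached a 4-fold fall for 2 and a 4-fold rise for 4, against 7.89% and 19.8% of all genes. The smallest adjusted p-value was that of snx33.L, 0.107, with a log2 fold change of -2.12 (standard error 0.61), followed by trappc2.S with -2.19 (standard error 0.84, adjusted p = 0.172). DESeq2's Wald test called 4 of the 36 lower at T2 than at T1, where it called 17.5% of all genes in either direction, with adjusted p-values of 3.49e-07 for snx33.L, 5.27e-07 for trappc2.S, 0.0325 for vamp8.L and 0.0478 for trappc3.S. In edgeR's test without T1 replicate 1, 3 were called (9.43% of all genes), snx33.L lower and rab20.S and rab8b.L higher at T2. The T2 libraries lay entirely above T1 for 4 mRNAs (rab8b.L, rab20.S, ap3m2.L and sec24b.L, against 13.2% of all genes) and entirely below T1 for 3 (snx33.L, trappc2.S and exoc4.L, against 7.73%), or 20.9% of all genes in either direction.

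Other genes of vesicle traffic that the symbols in the rule leave out numbered 51 in the same table. Of these, 4, or 7.84%, were called at T1 against the input, 3 higher and 1 lower. This is below the 11.5% of all genes tested that were called (6.44% higher and 5.08% lower). The log2 fold changes of these 51 had a median of -0.12 at T1, against -0.09 over all genes. Of 6 clathrin and COPII partners, 1 was called, tfg.S, for a protein that organizes the exit sites of COPII vesicles, with 191, 206 and 222 CPM in the input, 475, 432 and 431 CPM at T1 and 216, 223 and 231 CPM at T2 (log2 fold change 1.11, standard error 0.20, adjusted p = 0.00741 with edgeR). All T1 libraries were above all others, and the T2 libraries were near the input. Of 14 Golgi tethers and cargo receptors, 2 were called. The lman2.L mRNA, for a lectin that carries glycoproteins through the early secretory pathway, had 5.11, 8.65 and 8.001 CPM in the input and 40.5, 35.5 and 93.6 CPM at T1 (2.96, adjusted p = 0.0323). The golt1b.L mRNA, for a small Golgi membrane protein, had 13.8, 12.5 and 16.1 CPM in the input and 30.2, 106 and 431 CPM at T1 (3.74, adjusted p = 0.0211). Of 17 Rab regulators and effectors, sytl2.S was called lower. It encodes an effector of Rab27, and had 271, 235 and 336 CPM in the input, 135, 47.3 and 80.3 CPM at T1 and 184, 130 and 130 CPM at T2 (-1.68, standard error 0.38, adjusted p = 0.0201), with no overlap of either filtrate with the input. The median over these 17 was -0.34, with 4 of them above 0. None of the 14 genes for SNAREs, endosomes and lysosomes passed the test at T1, and none of the 51 did in the other comparisons.

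A pair of entries carried a human symbol of these families but no such frog symbol, and were not counted among the 36. LOC108710334, listed with the human counterpart VPS41, a HOPS subunit, had 8.53, 7.38 and 5.10 CPM in the input, 0 reads in all 3 T1 libraries and 6.84, 5.78 and 10.8 CPM at T2. Against 3 reads per library, which a count of 0 allows, its T1 level was at least 63.9-fold lower (adjusted p = 0.0179 with edgeR). This bound covers counting error only, not the spread between libraries. LOC108710051, listed with RAB6A, a Golgi Rab, had 35.5, 28.0 and 53.0 CPM in the input, 64.3, 2.88 and 60.2 CPM at T1 and 54.6, 46.2 and 40.0 CPM at T2, and did not pass (log2 fold change 0.13, standard error 0.84). Across the 36 mRNAs the log2 fold change at T1 correlated with the log2 of the mean input CPM at -0.10 (Pearson) and -0.37 (Spearman, n = 36). Over all genes the Spearman correlation was 0.06. This is a description over mRNAs of the same libraries, and the input level enters both quantities.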

How the data were processed

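The deposited counts were whole reads per gene, made by the authors with Trim Galore, STAR's gene counting on the *X. laevis* v10.1 genome and no normalization, from stranded libraries depleted of ribosomal RNA. Which strand column was used is not given in the sources used here. A table of the same counts divided by DESeq2 size factors, a normalized signal the authors also deposited, gave back whole reads for 100% of values (tolerance 0.05 reads) and served as an alternative. It called 2358 genes at T1. For 4 of the 36 mRNAs its reads differ from the raw table. The members were the mRNA entries whose frog symbol starts with rab, sec, arl or arf and a digit (or arfg), cop and a, b, e, g or z, ap, a digit from 1 to 4 and a letter, or vps, snx, stx, vamp, trappc or exoc. Members and lists were chosen with earlier results of these data known. Counts of genes over the filter (10 reads minimum, 15 in total, 20148 genes) were scaled by TMM and fitted with edgeR 4.0.16 (R 4.3.3) over all 9 libraries with condition as the only term, with Benjamini-Hochberg adjustment and a threshold of 0.05. Standard errors are the size of the log2 fold change over the square root of F. Of the 36 mRNAs 35 are named, and 1, counted in the totals, is not reported here. Values in all 9 libraries are given for those that passed a test and for the largest rise and fall at T1 in each role group. Others were added after their values were seen. Per-library ratios in the heat map had 1 CPM added. Alternatives were library size only, median-of-ratios factors, DESeq2 1.42.0, 2 other filters, only the compared conditions, the replicate block, recovered reads, members by either symbol, and each library left out. Multimapping reads are not in the counts, and 29 of the 36 genes have a second homeolog in the gene table, so levels of near-identical copies are uncertain. Reads are not independent molecules. Symbols were joined to chromosome positions in RefSeq's gene table of build v10.1. No sequences were at hand.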

Additional observations from a re-analysis of the deposited data

Results flagged for a closer look

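The mRNAs of snx33.L and trappc2.S lay on opposite sides of the mean input in the filtrates. Every T1 library was above it and every T2 library below it, in 3 of 3 libraries each. The T2 side was small, with all 3 T2 libraries of both within 2-fold of the mean input. Against the input, the T2 log2 fold change was -0.49 for snx33.L (standard error 0.59) and -0.73 for trappc2.S (standard error 0.81). Neither passed edgeR's test (adjusted p = 0.9999 for both). The log2 fold change of T2 against T1 was -2.12 for snx33.L (standard error 0.61, adjusted p = 0.107) and -2.19 for trappc2.S (standard error 0.84, adjusted p = 0.172) in edgeR's test, which neither passed. This pattern was met by 2 of the 36 mRNAs and by 107 of all genes tested (0.531%), and the opposite pattern by 0 of the 36 and 381 genes (1.89%).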

How the results depend on the processing

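The number of the 36 mRNAs called at T1 against the input, 2 as reported, rose to 9 in DESeq2's test, 7 of them higher, where 27.9% of all genes were called, and to 3 with members taken by either symbol. It fell to 1 with median-of-ratios size factors (11.1% of all genes) and to 1 with no filter beyond 1 count (7.58%). It ranged from 0 to 6 when a library was left out, with 0 for each input library, 6 when it was T1 replicate 1, 4 for T1 replicate 3 and 1 for T1 replicate 2, T2 replicate 1 or T2 replicate 3. Between T2 and T1 it was 4 with DESeq2 (17.5% of all genes) and 0 to 3 with a library left out, 3 without T1 replicate 1 (9.43%). At T2 against the input it was 0 in all of these settings, where DESeq2's test called 1.24% of all genes. The cause of these differences was not tested. With library size only, the median log2 fold change of all genes at T1 moved from -0.09 to -0.25.

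The sources do not say what a replicate number shares. The deviations of same-numbered libraries correlated between -0.04 and 0.39, with 5 of 9 pairs over 0.1, against 2 of 18 pairs with unlike numbers. The bar of 0.1 was chosen here, and these correlations cannot decide whether the numbers pair the libraries, so that some pairing is possible. The reported fit did not pair them, and an extract shared between conditions would not be accounted for in it. With the replicate block, 1 of the 36 mRNAs was called at T1 (vamp8.L, with 7.44% of all genes called) and the median log2 fold change at T1 was 0.0087, where that of all genes was -0.72. It changed the sign for arf3.S (-0.073), rab30.S (-2.78), ap1ar.L (-1.85) and copz1.S (-0.062). In 12 of 18 choices, each among the 3 libraries of another condition, a library correlated best with its own number.

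Signs changed for 11 of the 35 named mRNAs, none of which was called in the reported fit. With library size only they did for copz1.S (-0.13) and sec24a.L (-0.037). With a library left out, the T1 log2 fold change ranged from -0.98 to 0.82 for arf3.S, -7.33 to 0.56 for arfgap1l.S, -0.15 to 1.21 for arl1.L, -0.021 to 1.82 for rab21.L, -6.13 to 2.47 for rab30.S, -1.02 to 0.22 for rab33b.L, -10.02 to 2.32 for ap1ar.L, -0.43 to 0.60 for copz1.S, -0.12 to 0.31 for sec24a.L, -0.61 to 0.12 for snx1.L and -0.30 to 0.90 for vps33b.L. The counts of mRNAs 8-fold or more below the mean input in each filtrate library stayed the same numbers with library size only and with median-of-ratios factors, alternatives chosen after seeing the data. Some counts of mRNAs more than 2-fold above the mean input moved. As reported, with library size only and with median-of-ratios factors, they were 14, 13 and 14 in T1 replicate 2. In T1 replicate 3 they were 12, 12 and 15, and in T2 replicate 2 they were 7, 9 and 5.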
